A study of Mus musculus with 31 samples.

Results

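Mammary glands that kept a single Stat5a allele (A) were compared with glands whose epithelium had lost both Stat5 genes (Null) on the day of parturition. Of 22609 genes in the deposited table, the 13120 with a scaled FPKM of 1 or more in either column were compared, and these are all the genes described here. FPKM counts sequenced fragments per length of transcript and per number of mapped fragments. Scaling means that each of the 6 genotype columns was divided by its median ratio to the geometric mean of all 6, so that a typical gene has a similar value in each column.

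Poly(A) RNA came from mammary tissue without lymph nodes of mice of a mixed 129SV::FVB/N::C57BL/6 strain, taken less than 12 hours after delivery, and 2 samples are listed for each of the A and Null groups. The labels give no age. A mice are Stat5abnull/Stat5b-: they inherited 1 chromosome without either gene and 1 without a functional Stat5b, so every cell of the body has a single Stat5a allele. Null mice are Stat5abfl/fl;MMTV-Cre, line A: both genes are removed only where the MMTV-Cre transgene is active, and the design text describes loss in mammary epithelial cells, not in the fat, vessels or immune cells of the gland. The manner of gene loss and the Stat5 status of the surrounding tissue thus vary along with the single allele, and their effects cannot be told apart. The strain is mixed, and whether strain alleles of other genes differed between the groups was not tested. The other columns serve to place the values: B has a single Stat5b allele (Stat5abnull/Stat5a-), BB is Stat5a-/-, AB is Stat5ab+/null, and AABB is wild type, which per the design text may include Stat5abfl/fl mice without Cre. The authors deposited only a mean per genotype, so no value below has an SD or a p-value and no difference has a replicate check. Read depth is unknown.

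STAT5A and STAT5B are transcription factors that the prolactin receptor activates, through the kinase JAK2, in mammary epithelium. During pregnancy they drive the formation of alveoli, the secretory units of the gland, and at parturition these switch to abundant secretion of milk proteins, lactose and fat. STAT5 binds DNA as a dimer at a short palindrome, TTCNNNGAA, known as a gamma-interferon activated sequence.

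The sequences upstream of 4 genes with large differences between A and Null are shown, 2 caseins in which this palindrome was found and 2 genes in which it was not. Each is the 250 bases before the annotated start in RefSeq (GRCm38.p6), 5′ to 3′ on the gene's own strand, with the letters TTCNNNGAA in capitals where they occur (the motif reads the same on both strands). The regions are chr5:87699426-87699675 (minus strand) for Csn2, chr5:87665958-87666207 (plus strand) for Csn1s1, chr15:98482684-98482933 (minus strand) for Lalba and chr7:46715677-46715926 (minus strand) for Saa3.
Csn2: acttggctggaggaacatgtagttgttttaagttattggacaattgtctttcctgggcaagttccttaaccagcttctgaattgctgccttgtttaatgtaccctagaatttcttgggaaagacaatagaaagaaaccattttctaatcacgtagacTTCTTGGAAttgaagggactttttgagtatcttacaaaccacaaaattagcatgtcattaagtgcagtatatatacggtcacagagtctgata
Csn1s1: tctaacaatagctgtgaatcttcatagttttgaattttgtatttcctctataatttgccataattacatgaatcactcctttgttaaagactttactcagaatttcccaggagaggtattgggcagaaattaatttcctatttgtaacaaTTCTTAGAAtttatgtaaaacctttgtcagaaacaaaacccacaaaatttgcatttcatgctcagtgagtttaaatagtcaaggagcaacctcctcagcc
Lalba: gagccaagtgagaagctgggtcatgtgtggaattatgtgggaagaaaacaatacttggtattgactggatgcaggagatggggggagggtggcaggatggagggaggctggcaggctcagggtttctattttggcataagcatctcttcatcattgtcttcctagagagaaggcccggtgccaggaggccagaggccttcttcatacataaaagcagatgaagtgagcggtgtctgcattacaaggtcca
Saa3: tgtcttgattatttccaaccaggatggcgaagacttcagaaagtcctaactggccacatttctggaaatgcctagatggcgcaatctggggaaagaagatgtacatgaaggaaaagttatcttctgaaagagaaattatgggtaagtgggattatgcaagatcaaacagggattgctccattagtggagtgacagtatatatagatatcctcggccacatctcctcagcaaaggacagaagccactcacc

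The match in Csn2, TTCTTGGAA, begins 93 bases before the start, and that in Csn1s1, TTCTTAGAA, 100 bases before it. Csn1s2a, also a casein gene, holds TTCTTAGAA beginning 20 bases after its start. No other casein gene had a promoter in the table. The motif is common in windows of this size and stood in 8.30% of 32851 promoter windows of 300 bases (250 before to 50 after the start). It was present in 30 of 314 promoters of genes at least 2-fold higher in A (9.55%) and in 23 of 290 of genes at least 2-fold lower (7.93%), against 8.41% of the promoters of all genes compared. A match is a run of letters and not a measured binding site, and its absence from a window says nothing of sites elsewhere.

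Most genes had similar levels in A and Null. On the log2 scale of scaled FPKM + 1, which understates the differences of weakly expressed genes, 92.8% of the 13120 genes were within 2-fold, the median ratio of A over Null was −0.03, and the 5th and 95th percentiles were −0.88 and 0.87. At least 2-fold higher in A were 467 genes (3.56%) and at least 2-fold lower were 473 (3.61%), and at least 4-fold there were 67 higher (0.511%) and 55 lower (0.419%). The numbers of higher and lower genes were thus nearly equal, but they were not equal among abundant transcripts. Of 589 genes with a mean of 100 FPKM or more in the A and Null columns, 73 were higher in A (12.4%) and 30 lower (5.09%). Of 3939 genes under 5 FPKM, 120 were higher and 163 lower. At the threshold for comparison, 5430405H02Rik, Fgf12 and Cdc6 lay just outside, with 0.994, 0.997 and 0.999 as the higher of their A and Null values, and Dynlrb2, Zim1 and Gm694 just inside at 1.00 each.

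**Figure D1:**
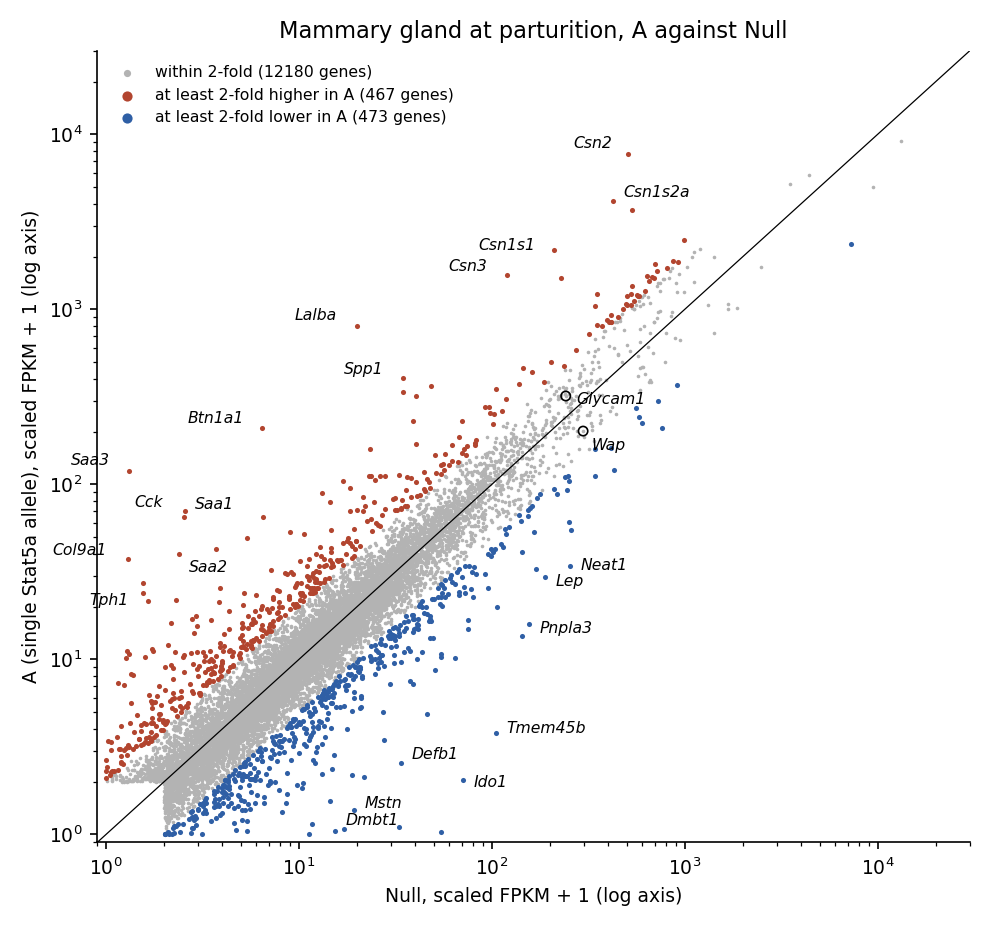
Scaled FPKM + 1 of each of 13120 genes in A (vertical axis) and in Null (horizontal axis), both on log axes, each point the authors' mean for a gene. Caseins, Lalba, Btn1a1 and the Saa genes lie far above the diagonal, Ido1, Tmem45b and Mstn far below it, and the circled milk genes Wap (201 in A, 296 in Null) and Glycam1 (319 in A, 240 in Null) close to it.

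Stat5a itself, the gene that distinguishes the genotypes, was 16.5 FPKM in A and 6.96 in Null (log2 ratio 1.14), against 70.8 in wild type. Stat5b was 10.3 in A and 7.65 in Null (0.39). The A mice have no functional Stat5b allele by their label, and the Null glands none of either gene in Cre-expressing cells, so part of these levels is transcript that a gene-level FPKM counts without showing whether it is functional or from which cells. Stat5a was thus higher in the genotype labelled with an allele of it, and the size of its difference is not a measure of the difference in STAT5 protein.

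Milk protein genes made up the group that stood furthest from the other genes, and the group was divided. Of 20 casein, whey protein and milk mucin genes compared, 15 were at least 2-fold higher in A and 1 was lower, with a median log2 ratio of 2.44, beside −0.03 over all genes. Together they held 20029 FPKM in A and 2830 in Null. That was 4.44% of the summed FPKM of A and 0.724% of that of Null, but 66.4% of that of wild type. The single allele thus went with more milk protein transcript than in Null, at a small part of the level in wild type.

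Among the caseins, the phosphoproteins that carry calcium in milk, 4 of 5 were between 9.76-fold (Csn1s2a) and 15.3-fold (Csn2) higher in A on the linear scale. Csn2 (beta-casein) was 7706 in A and 504 in Null, which made it the 2nd most abundant transcript of A and the 96th of Null. Csn1s2a was 4152 in A and 426 in Null, Csn1s1 2191 in A and 208 in Null, and Csn3 (kappa-casein) 1574 in A and 119 in Null. Against wild type, these 4 genes reached 3.16% (Csn2), 2.01% (Csn1s2a), 1.98% (Csn1s1) and 2.16% (Csn3) in A. In Null the same genes stood at 0.207% (Csn2), 0.206% (Csn1s2a), 0.188% (Csn1s1) and 0.163% (Csn3) of wild type. The fifth casein gene, Csn1s2b, went the other way, with 1.66 in A and 10.9 in Null, and 17144 in wild type.

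The other milk proteins showed the same division. Lalba, the regulatory subunit of lactose synthase, had 800 FPKM in A and 19.0 in Null (log2 ratio 5.32), or 7.37% and 0.175% of wild type. Btn1a1 (butyrophilin, a membrane protein of the milk fat globule) had 210 in A and 5.46 in Null (5.03), and A reached 15.1% of wild type. Spp1 (osteopontin) had 405 in A and 33.5 in Null (3.56). These differences were of the size of those of the caseins or larger. Lao1, an L-amino acid oxidase of milk, had 87.8 in A and 12.1 in Null (2.76), and Pigr, the receptor that carries immunoglobulin into milk, 16.0 in A and 1.79 in Null (2.61). Mfge8, another milk fat globule protein, had 812 in A and 348 in Null (1.22).

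Wap and Glycam1, which with the caseins are among the most abundant transcripts of wild type, did not differ in this way. Wap (whey acidic protein) had 201 FPKM in A and 296 in Null (log2 ratio −0.56), with 138276 in wild type, so that A held 0.145% and Null 0.214% of the wild-type level. Glycam1, a mucin-like milk protein, had 319 in A and 240 in Null (0.40), with 129120 in wild type. Fabp3, a fatty acid binding protein of secretory cells, had 18.3 in A and 22.4 in Null (−0.28), with 14646 in wild type. For these genes, A and Null were within 2-fold of each other and both were below 1% of wild type. The remaining members within 2-fold were Muc15 (log2 ratio 0.80), a membrane mucin, and Xdh (0.40), xanthine oxidoreductase, which is needed for the release of fat globules. In the list of 12 milk fat globule and lipid droplet genes, 2 were higher (Btn1a1 and Mfge8) and 1 lower, with a median of 0.29. The lower one, Cidea, a lipid droplet protein, had 11.4 in A and 25.4 in Null, against 1828 in wild type.

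Across the allele series the same genes separated again. Csn2 was 504 in Null, 2698 in B, 7706 in A, 110456 in BB, 97643 in AB and 243805 in wild type, so that each genotype with a Stat5 allele stood above Null. Wap was 296 in Null, 13.1 in B, 201 in A, 17011 in BB, 27599 in AB and 138276 in wild type. The lowest value of Wap was thus in B and not in Null. Csn1s2a was 426 in Null, 345 in B and 4152 in A, and Spp1 was 33.5 in Null, 39.6 in B and 405 in A, so both were low in B and high in A. B shares the Stat5abnull chromosome with A, and its label names no Cre.

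**Figure D2:**
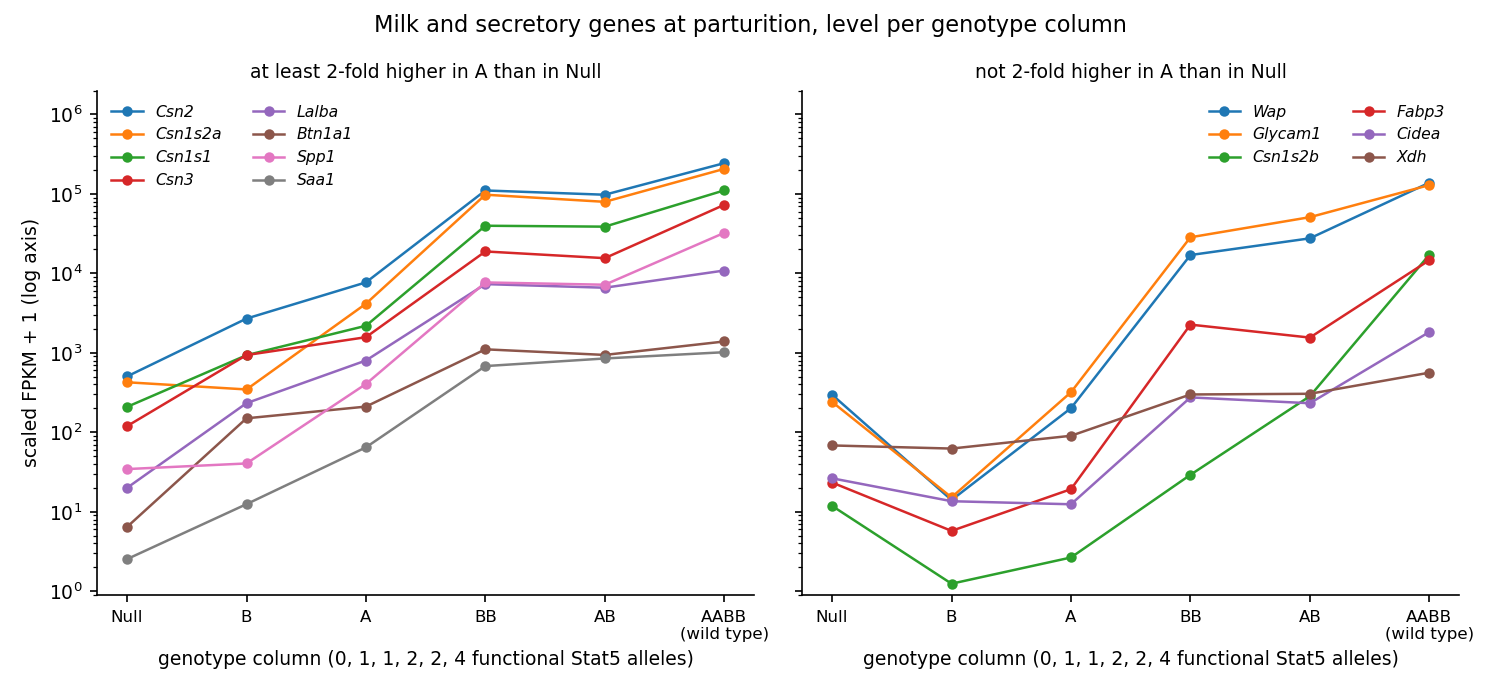
Scaled FPKM + 1 (log axis) of milk and secretory genes in the 6 genotype columns in order of functional Stat5 alleles, each point the authors' mean. On the left are genes at least 2-fold higher in A than in Null, such as Csn2 and Lalba; on the right are genes that were not, of which Wap, Glycam1, Csn1s2b and Fabp3 were lowest in B.

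RNA was taken from whole tissue, in which fewer cells of a type and less RNA per cell cannot be told apart, and epithelial markers also differed, by less than the milk genes. Of 19 luminal epithelial markers 6 were at least 2-fold higher in A and none lower, with a median log2 ratio of 0.86, and 17 of 19 were above 0. Their summed level was 3034 in A and 1707 in Null, and the highest of them in both columns were keratins. Epcam, an epithelial adhesion protein, was 251 in A and 102 in Null. The keratins Krt18 (677 in A, 343 in Null) and Krt8 (449 in A, 238 in Null) were just under 2-fold apart, and Krt7 was lower in A, at 39.4 against 69.5 in Null. Of 15 basal and myoepithelial markers 4 were higher and none lower (median 0.74), among them Krt5, 106 in A and 45.0 in Null, and Actg2, a smooth muscle actin of contractile cells, 19.5 in A and 4.10 in Null. The summed level of this list was 1374 in A and 809 in Null. The part of the epithelial content in the milk gene differences was not tested.

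Most regulators of alveolar differentiation were within 2-fold. Of 14 alveolar transcription factors 4 were at least 2-fold higher and none lower (median 0.59). Elf5, which is required for alveolar cells, was 185 FPKM in A and 66.9 in Null (log2 ratio 1.45), against 1085 in wild type. Xbp1, which expands the secretory apparatus, was 304 in A and 117 in Null (1.37), Elf3 33.2 in A and 12.5 in Null (1.34), and Cited4, a transcriptional coactivator, 45.3 in A and 17.4 in Null (1.33). The secretory pathway list had 3 of 27 genes higher and none lower (median 0.51). They were Xbp1 and 2 endoplasmic reticulum components, Sec61b of the translocation channel (119 in A, 55.8 in Null) and Ssr4 of the associated complex (113 in A, 53.4 in Null).

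The components of prolactin signalling did not follow the milk genes. Of 14 genes of STAT5 feedback and prolactin signalling none was at least 2-fold higher and 3 were lower (median −0.04). Among the lower genes, the receptor gene Prlr was 21.7 FPKM in A and 51.6 in Null (log2 ratio −1.21), and the growth hormone receptor Ghr 86.7 in A and 217 in Null (−1.31). Cish, an inhibitor that STAT5 induces, was 13.2 in A and 6.68 in Null (0.89), and Socs2, another feedback inhibitor, 10.9 in A and 7.81 in Null (0.43). Cish was 43.5 in wild type.

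Genes that respond to pregnancy hormones were more often higher than lower, with 6 of 13 at least 2-fold higher, 1 lower, and a median of 0.96. Tph1, which encodes the first enzyme of serotonin synthesis, was 20.6 FPKM in A and 0.650 in Null (log2 ratio 3.71), and it was 42.8 in B and 3.06 in wild type. Tnfrsf11a (RANK, the receptor of RANKL) was 8.85 in A and 3.00 in Null, while Tnfsf11 (RANKL, the ligand) was 0.391 in A and 1.99 in Null, both near the floor. Wnt4, a ligand downstream of progesterone, was 7.33 in A and 2.64 in Null. Of 11 markers of hormone-sensing epithelium 2 were higher and 3 lower (median −0.14), and Foxa1, a cofactor of the oestrogen receptor, was 16.7 in A and 46.9 in Null (−1.43).

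Several lipid synthesis genes were lower in A. Of 17 genes of de novo fatty acid synthesis 5 were at least 2-fold lower in A and 2 higher, with a median log2 ratio of −0.64. Scd1, which desaturates fatty acids, was 2355 in A and 7298 in Null (−1.63). Fasn, the fatty acid synthase, was 370 in A and 909 in Null (−1.29), and Acly, which supplies its acetyl-CoA, 161 in A and 412 in Null (−1.35). Mlxipl (ChREBP, a glucose-responsive activator of these genes) was 9.22 in A and 63.8 in Null (−2.66). The first of the 2 higher genes was Olah, the thioesterase that releases medium-chain fatty acids in mammary epithelium, with 11.2 in A and 1.10 in Null (2.53) and 1156 in wild type. The other was the desaturase Fads2, 73.8 in A and 34.4 in Null.

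Few genes of triglyceride assembly, and 9 of 18 adipocyte markers, were at least 2-fold lower in A. Of 15 genes of fatty acid uptake and triglyceride assembly none was higher and 3 were lower (median −0.14), namely Lpin1 (29.6 in A, 82.2 in Null), Dgat2 (300 in A, 730 in Null) and Gpd1 (240 in A, 579 in Null), all enzymes of the pathway. Of 18 white adipocyte markers 9 were lower and none higher (median −0.99), and their summed level was 23382 in A and 32039 in Null. Lep, the hormone leptin, was 28.4 in A and 188 in Null (−2.68), Npr3, a natriuretic peptide clearance receptor, 6.55 in A and 36.7 in Null (−2.32), and Pparg, the master regulator of adipocytes, 39.1 in A and 94.8 in Null (−1.26). Other abundant markers were lower by less than 2-fold, such as Fabp4 (9203 in A, 13203 in Null), Car3 (4964 in A, 9505 in Null) and Adipoq (1069 in A, 1673 in Null). Cfd (adipsin) went the other way, at 5813 in A and 4404 in Null, and was among the 3 of 18 markers with a ratio above 0. Adipocytes and alveolar cells both synthesize fat, the medians of the adipocyte and fatty acid synthesis lists were both below 0, and the part of adipocyte content was not tested. Of 7 brown adipocyte markers 3 were lower and 1 higher (median −0.68); the higher one was Elovl3, and Ucp1, the uncoupling protein that defines these cells, was 0.568 in A and 4.03 in Null. Cholesterol synthesis had 2 of 18 genes lower and none higher (median −0.31), Sc5d (21.8 in A, 79.1 in Null) and Nsdhl (13.0 in A, 29.1 in Null), both enzymes of late steps.

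Supply of sugars, amino acids and minerals differed in single genes rather than as groups. Of 14 genes of lactose synthesis and glucose supply 2 were higher and 1 lower (median 0.23). Besides Lalba these were the aldolase Aldoc, 111 FPKM in A and 22.6 in Null (log2 ratio 2.24), and the hexokinase Hk2, 13.9 in A and 73.9 in Null (−2.33). B4galt1, the catalytic subunit of lactose synthase, was 44.9 in A and 32.2 in Null, against 619 in wild type. The 2 subunits of the enzyme thus differed unequally, Lalba 42.1-fold and B4galt1 within 2-fold. Of 16 amino acid transporters 2 were higher and 1 lower (median 0.05). Slc1a4, a neutral amino acid transporter, was higher (20.2 in A, 2.86 in Null) and the related Slc1a5 lower (110 in A, 341 in Null), and Slc7a5, a transporter of large neutral amino acids, was 13.5 in A and 6.15 in Null. Of 10 genes of calcium, zinc and serotonin handling 2 were higher and none lower (median 0.35). The zinc importer Slc39a8 was 36.7 in A and 10.2 in Null, and Tph1 was the other gene past 2-fold.

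Ion and water transport genes of ducts were mostly higher in A. Of 15 compared of 17 listed, 10 were at least 2-fold higher and 1 lower. The median was 1.51 over these 15 and 1.19 over all 17. Some members, such as Scnn1g and Car6, reached the floor of 1 FPKM in A alone. Scnn1b, a subunit of the epithelial sodium channel, was 48.1 in A and 4.35 in Null (log2 ratio 3.20), and the subunit Scnn1g 9.21 in A and 0.270 in Null (3.01). The third subunit, Scnn1a, was 4.52 in A and 8.20 in Null (−0.74), so the subunits of this channel did not differ in 1 direction. Slc34a2, a phosphate transporter, was 16.8 in A and 1.94 in Null (2.60), Car6, a secreted carbonic anhydrase, 7.12 in A and 0.386 in Null (2.55), and Clca2, a regulator of chloride conductance, 104 in A and 23.9 in Null (2.08). The lower gene was Slc12a2, the sodium-potassium-chloride cotransporter, at 31.6 in A and 168 in Null (−2.37). Of 15 tight junction genes 4 were higher and 1 lower (median 0.63), among them Cldn8 (11.9 in A, 4.78 in Null) and Cldn10 (6.75 in A, 18.1 in Null), claudins of the paracellular barrier.

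**Figure D3:**
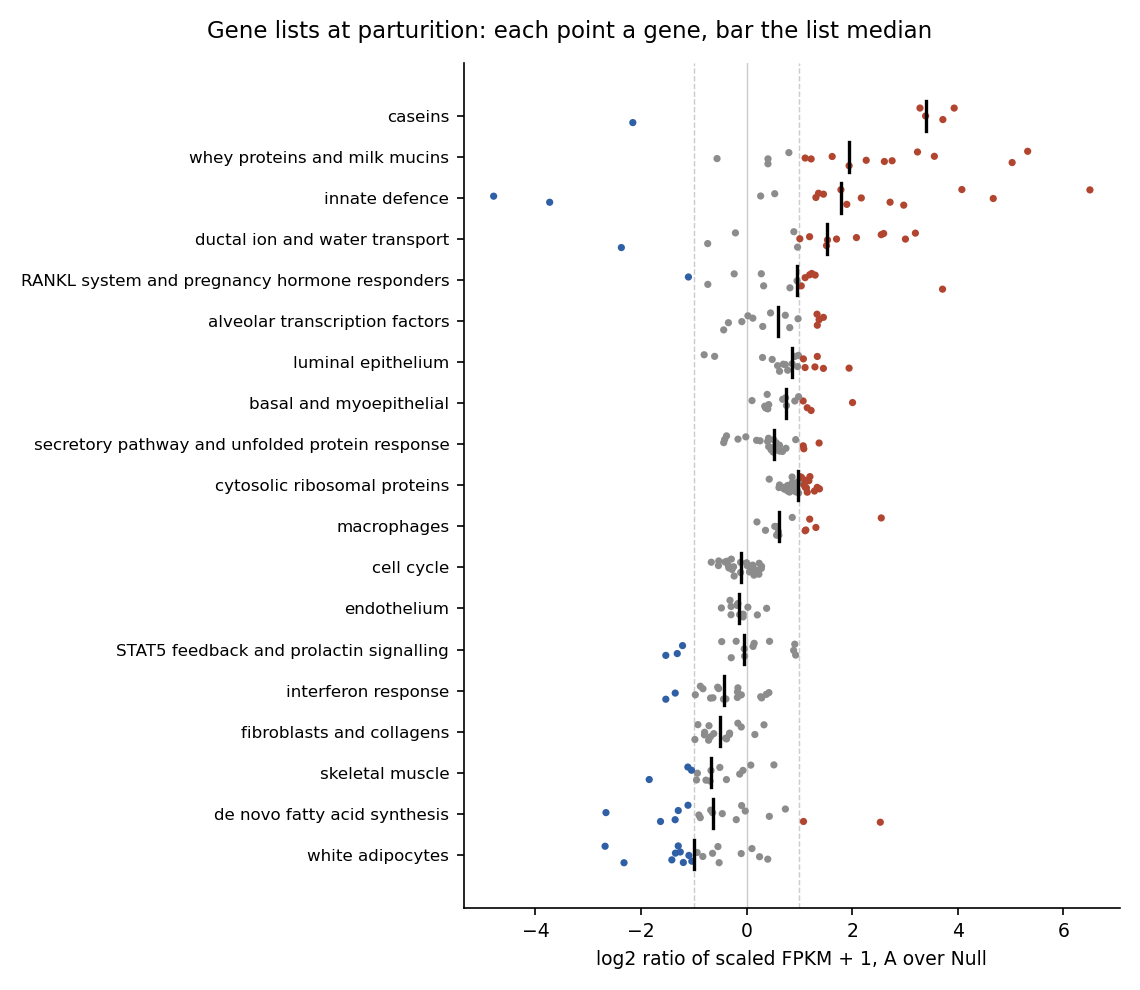
Log2 ratio of scaled FPKM + 1, A over Null, for each compared gene (points, spread vertically only for legibility) of 19 gene lists, with the median of each list as a bar; red and blue points are at least 2-fold higher and lower. Medians run from 3.39 for caseins to −0.99 for white adipocytes. The caseins and the innate defence, ductal transport, RANKL and fatty acid synthesis lists hold genes past 2-fold on both sides.

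Innate defence genes held the widest range. Of 15 compared of 18 listed, 11 were at least 2-fold higher and 2 lower. The median was 1.79 over these 15 and 1.41 over all 18. Some members, such as Saa3, reached the floor of 1 FPKM in A alone. Saa3, a serum amyloid made in the mammary gland, had the highest ratio of all genes compared, with 118 FPKM in A and 0.317 in Null (log2 ratio 6.50), while B had 77.8 and wild type 30.3. Saa1 was 63.7 in A and 1.54 in Null (4.67) and Saa2 39.2 in A and 1.38 in Null (4.08). Unlike Saa3, they were highest in wild type, at 1018 for Saa1 and 965 for Saa2. The Saa genes are related in sequence, and of these 3 Saa1 and Saa2 are near-identical. How reads were divided among the Saa genes is not given in the sources used here. Lcn2 (lipocalin, which binds bacterial siderophores) was 1501 in A and 227 in Null (2.72), and Chi3l1, a chitinase-like protein, 317 in A and 39.4 in Null (2.98). Slpi, a protease inhibitor, was 31.4 in A and 6.19 in Null (2.17). The 2 lower members were Tmem45b (2.80 in A, 104 in Null, −4.79) and Defb1 (1.55 in A, 32.8 in Null, −3.73). The lower end of the range thus rests on Tmem45b, a membrane protein. Dmbt1, given below with the lowest genes, is not in this list.

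Some markers of myeloid cells were also higher in A. Of 13 macrophage markers 5 were at least 2-fold higher and none lower (median 0.61), and all 13 were above 0. Cd14, a coreceptor for bacterial lipopolysaccharide that mammary epithelium also makes, was 228 in A and 38.1 in Null (log2 ratio 2.55), and the complement gene C1qa 220 in A and 100 in Null (1.12). Csf1r, the receptor that defines the lineage, was 39.5 in A and 26.2 in Null. Of 4 neutrophil markers compared of 8 listed, 3 were higher, all at low levels in Null, such as S100a9 at 13.0 in A and 3.07 in Null. The median was 1.73 over these 4, of which 1, Retnlg, reached the floor in A alone, and 0.53 over all 8. The summed level of the macrophage list was 1435 in A and 608 in Null, and that of the neutrophil list 30.3 in A and 8.08 in Null. The granule genes Elane, Mpo and Ngp, which define immature neutrophils, were under 1 FPKM in both columns. Of T cell markers 5 of 10 reached 1 FPKM in either column, none higher and 1 lower, with a median of −0.35. The lower one was Cd3e (0.0539 in A, 3.74 in Null), a chain of the T cell receptor complex. Of B and plasma cell markers 1 of 8 did so, Igj, the joining chain of antibodies, with 1.84 in A and 14.2 in Null. The neutrophil markers S100a8 and S100a9 are also members of the innate defence list, so these lists are not separate observations. The part of immune cells in the innate defence genes was not tested.

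The remaining genes with the highest ratios have varied roles. Col9a1, a collagen of cartilage, was 36.3 FPKM in A and 0.297 in Null (log2 ratio 4.85), and Cck, the peptide hormone cholecystokinin, 69.7 in A and 1.56 in Null (4.79). Elovl3, a fatty acid elongase, was 22.9 in A and 0.560 in Null (3.94), and in contrast to the milk genes it was 18.8 in B and 1.87 in wild type. Cel, the bile salt-stimulated lipase of milk, was 41.5 in A and 2.73 in Null (3.51), and Folr1, a folate receptor, 64.4 in A and 5.54 in Null (3.32). Col9a1, Cck, Cel and Folr1 were all higher in wild type than in A, at 94.9, 146, 1165 and 1093 in that order. By the rule of the 15 highest genes with 10 FPKM or more in either column, the others were Saa3, Saa1, Saa2, Lalba, Btn1a1, Tph1, Spp1 and the caseins Csn2, Csn3 and Csn1s1, and 1 gene of uncharacterised name was passed over.

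The genes that were lowest in A relative to Null were of another kind. In 14 of the 15 lowest, the Null column held the highest of the 6 genotype levels, although the genes were chosen on that same Null value. Ido1, which degrades tryptophan, was 1.03 FPKM in A and 69.6 in Null (log2 ratio −5.12). It was the exception, since it was higher still in B, at 111. The pigment gene a (agouti) was 0.102 in A and 32.1 in Null (−4.91), and 0.171 or less in each of the other genotypes. Tmem45b, a membrane protein, was 2.80 in A and 104 in Null (−4.79), Dmbt1, a mucosal defence glycoprotein, 0.0468 in A and 14.4 in Null (−3.88), and Mstn (myostatin, an inhibitor of muscle growth) 0.381 in A and 18.3 in Null (−3.81). Defb1, an epithelial antimicrobial peptide, was 1.55 in A and 32.8 in Null (−3.73). In wild type these 6 genes stood between 0.00435 (Dmbt1) and 11.8 FPKM (Defb1).

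The other genes among the 15 lowest include enzymes, noncoding RNAs and secreted proteins. Pnpla3, a lipase of lipid droplets, was 14.9 in A and 155 in Null (log2 ratio −3.30), Gdpd3, a glycerophosphodiesterase, 1.13 in A and 20.8 in Null (−3.36), and Lgals12, a galectin of adipocytes, 3.86 in A and 45.4 in Null (−3.25). Lep and Mlxipl, which were given with the lipid genes, also belong to the 15. The long noncoding RNA Neat1, the scaffold of nuclear paraspeckles, was 33.1 in A and 254 in Null (−2.90), and the noncoding host transcript Snhg11 1.19 in A and 17.9 in Null (−3.11). Fgg, a fibrinogen chain, was 2.47 in A and 26.7 in Null (−2.996), and Fam25c 0.548 in A and 13.4 in Null (−3.22). In B, Pnpla3, Lep, Neat1 and Fgg were 17.5, 23.2, 26.1 and 0.808 FPKM in that order, close to A or below it, and in wild type Neat1 stood at 148. A further 5 genes of uncharacterised name were passed over.

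**Figure D4:**
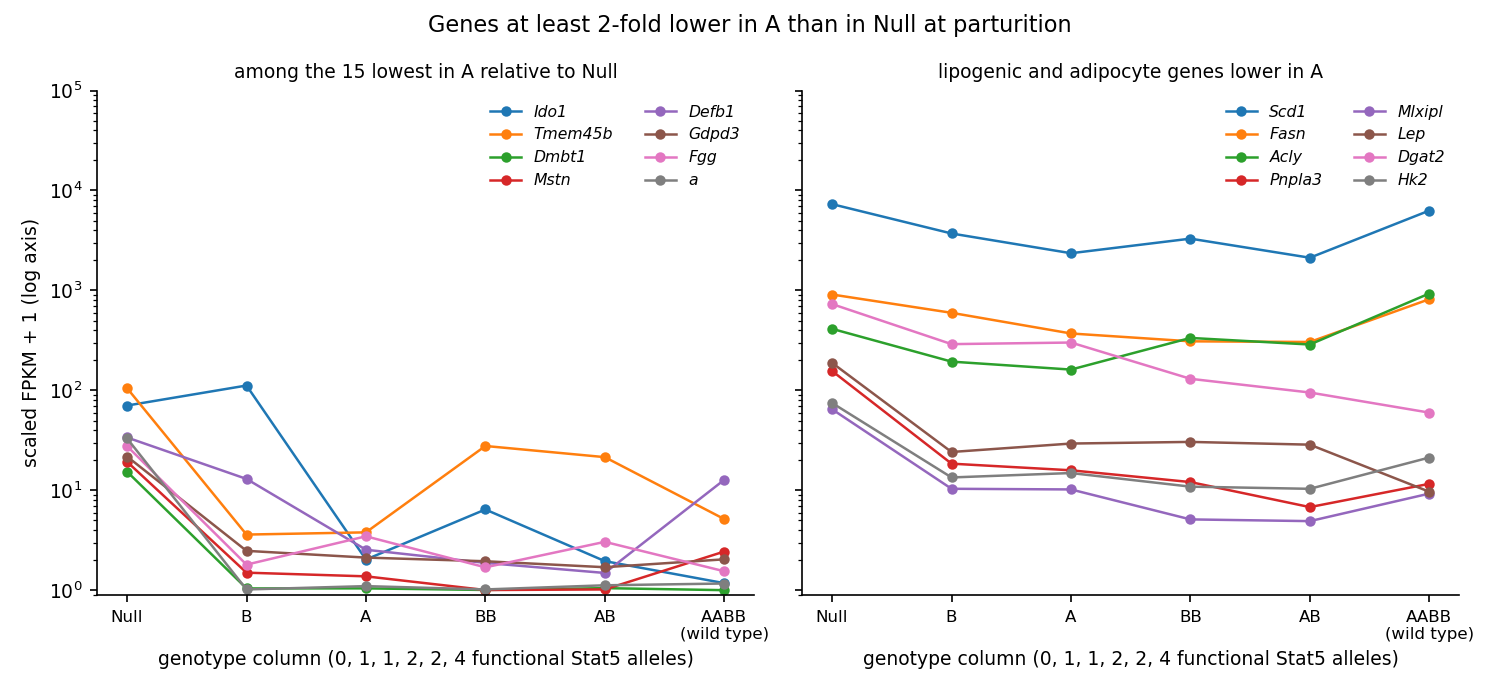
Scaled FPKM + 1 (log axis) of genes at least 2-fold lower in A than in Null across the 6 genotype columns, each point the authors' mean. On the left, a, Dmbt1, Mstn, Gdpd3 and Fgg are high in Null and near the bottom elsewhere, and Ido1 is high in Null and B; on the right, Scd1, Fasn and Acly are high in Null and again in wild type.

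Further cell type lists differed little or in mixed ways. Skeletal muscle markers, which show how much body wall muscle came with the tissue, had 3 of 14 lower in A and none higher (median −0.68), with a summed level of 2548 in A and 4130 in Null. Of 16 fibroblast and collagen genes none was past 2-fold (median −0.51), as was the case for 12 endothelial genes (median −0.15) and 7 MHC class II genes (median 0.28). Of 7 mast cell markers 1 was lower (median −0.30), and of 8 nerve and Schwann cell markers 1 was higher (median −0.53). That gene was Sox10, 70.5 in A and 31.1 in Null, a transcription factor that mammary epithelial cells also express.

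Of 25 cell cycle genes none was past 2-fold in either direction (median −0.11). The proliferation marker Mki67 was 1.21 in A and 1.86 in Null, against 26.5 in wild type. The interferon response list had 2 of 19 lower and none higher (median −0.44), among them Ifit3, an antiviral protein, with 9.21 in A and 25.1 in Null. Of 19 genes of STAT3 signalling and involution, the regression of the gland after weaning, 2 were higher and none lower (median 0.56). These were Igfbp5, which binds insulin-like growth factors, at 1214 in A and 348 in Null (log2 ratio 1.80), and the cytokine Tgfb3, at 112 in A and 32.0 in Null (1.77). In wild type they stood at 73.8 for Igfbp5 and 37.5 for Tgfb3.

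Many cytosolic ribosomal protein genes were at least 2-fold higher in A, and no mitochondrial respiratory chain gene was. Of 37 ribosomal protein genes 16 were at least 2-fold higher and none lower, all 37 had a ratio above 0, and the median was 0.97. Rps9 was 1813 in A and 696 in Null (log2 ratio 1.38) and Rplp1 2491 in A and 986 in Null (1.34). The whole list held 9.46% of summed FPKM in A and 5.40% in Null. The longest annotated transcripts of these genes are short, with a median of 1128 bases against 3316 over all genes compared. Across genes the ratio was related to this length (Spearman's rho −0.17 over 13009 genes, which share the same libraries and are not independent). Of the 2604 shortest genes 193 were higher and 113 lower, and of the 2602 longest 21 were higher and 105 lower. With the trend of the ratio with length and GC content removed, 6 of the 37 were past 2-fold and the median was 0.82. Ribosomal protein genes also have many processed pseudogenes, which could share their reads. Of 30 respiratory chain genes none was past 2-fold (median 0.09).

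The same genotypes were also sampled at day 6 of pregnancy, from other animals and in a table scaled on its own, where 3 samples are listed for each of A and Null. Of 13315 genes compared there, 820 were at least 2-fold higher in A (6.16%) and 641 lower (4.81%). Genes higher in A at both stages numbered 107, which is 22.9% of those higher at parturition and 13.0% of those higher at day 6. Genes lower at both stages numbered 104, or 22.0% and 16.2%. Opposite directions were seen in fewer genes. Genes higher at parturition and lower at day 6 numbered 28, or 6.00% and 4.37%. Genes lower at parturition and higher at day 6 numbered 40, or 8.46% and 4.88%. Of all genes compared at day 6, 4.81% were lower and 6.16% higher, so opposite directions were not rarer than these shares among the genes called at parturition. The difference between the stages has no replicate check.

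Of 4 caseins compared at day 6, 1 was at least 2-fold higher in A and 3 lower, and their median was −1.45. Csn1s1 was higher, with 33.3 in A and 2.62 in Null at day 6. Csn2 was lower at day 6, with 0.707 in A and 4.96 in Null, Csn1s2a had 0.193 in A and 6.04 in Null, and Csn3 26.9 in A and 58.5 in Null (log2 ratio −1.09). Csn2 and Csn1s2a reached the floor of 1 FPKM at day 6 in Null alone, so they could be compared only through that column. Both were near the floor in A and Null, against 2959 for Csn2 and 1197 for Csn1s2a in wild type at day 6. Spp1, another milk protein gene, was also lower in A at day 6, with 7.58 in A and 38.7 in Null. Tph1 was higher in A at both stages, with 12.1 in A and 0.180 in Null at day 6. Apod, a lipocalin, was 335 in A and 33.7 in Null at parturition and 63.8 in A and 10.6 in Null at day 6. Wfdc12, a whey acidic protein domain gene, was 15.8 in A and 2.50 in Null at parturition and 18.1 in A and 3.05 in Null at day 6. The immune genes Ly6c2 (15.1 in A and 1.18 in Null at parturition) and H2-Ea-ps (159 in A and 22.2 in Null) were likewise higher at both stages. H2-Ea-ps is a pseudogene of the MHC class II region, whose reads other class II genes could share. At day 6 it was 348 in A, 37.9 in Null and 0.00999 in AB, and the part of strain alleles was not tested.

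The 6 genes named for being lower at both stages all had their highest parturition level in Null, a value that also served to choose them. Tmem45b was 1.73 in A and 300 in Null at day 6, and the gene a 0.0569 in A and 45.2 in Null. Gdpd3 was 1.65 in A and 31.6 in Null at day 6, and Fam25c 6.48 in A and 47.2 in Null. Arg1, arginase, was 9.33 in A and 53.3 in Null at parturition and 4.15 in A and 43.0 in Null at day 6. Tox2, a transcription factor of the HMG-box family, was 1.22 in A and 12.1 in Null at parturition and 0.757 in A and 8.55 in Null at day 6.

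Genes with opposite differences included, besides Csn2, Csn1s2a, Csn3 and Spp1, a pair known from ion-transporting epithelial cells. Foxi1, a transcription factor of such cells, was 94.2 in A and 17.4 in Null at parturition and 3.57 in A and 13.1 in Null at day 6. Clic6, a chloride channel family protein, was 104 in A and 15.8 in Null at parturition and 3.02 in A and 15.2 in Null at day 6. St14 (matriptase, a membrane protease of epithelium) was 69.7 in A and 20.4 in Null at parturition and 10.2 in A and 31.5 in Null at day 6. Among genes lower at parturition and higher at day 6 were the noncoding RNAs Xist (10.1 in A, 36.6 in Null at parturition; 38.8 in A, 13.5 in Null at day 6) and Meg3 (0.506 in A, 4.89 in Null at parturition; 4.76 in A, 0.612 in Null at day 6). The others of this kind that the rule named were Lrrc15, Defb13, Mid1 and Hc, with log2 ratios at parturition between −2.61 (Hc) and −1.48 (Lrrc15). Neat1, given above with the lowest genes, was also higher in A at day 6, with 177 in A and 79.9 in Null (log2 ratio 1.14). In B it was 26.1 at parturition and 218 at day 6. For Xist, B was close to A (9.56 at parturition, 40.7 at day 6) and wild type was nearer Null (45.4 at parturition, 10.9 at day 6). For Meg3, B was also close to A (0.576 at parturition, 4.59 at day 6), and wild type was 1.17 at parturition and 1.28 at day 6. What the columns of A and B share here was not tested.

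Several lists had different medians at the 2 stages. Fibroblast and collagen genes had a median of −0.51 at parturition and 1.42 at day 6, mast cell markers −0.30 at parturition and 2.28 at day 6, and skeletal muscle −0.68 at parturition and −2.47 at day 6. White adipocyte markers had −0.99 at both stages. Luminal markers had 0.86 at parturition and −0.38 at day 6, and ribosomal protein genes 0.97 at parturition and −0.11 at day 6. The luminal and ribosomal medians were above 0 at parturition and below 0 at day 6. The part of tissue composition in these differences was not tested.

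**Figure D5:**
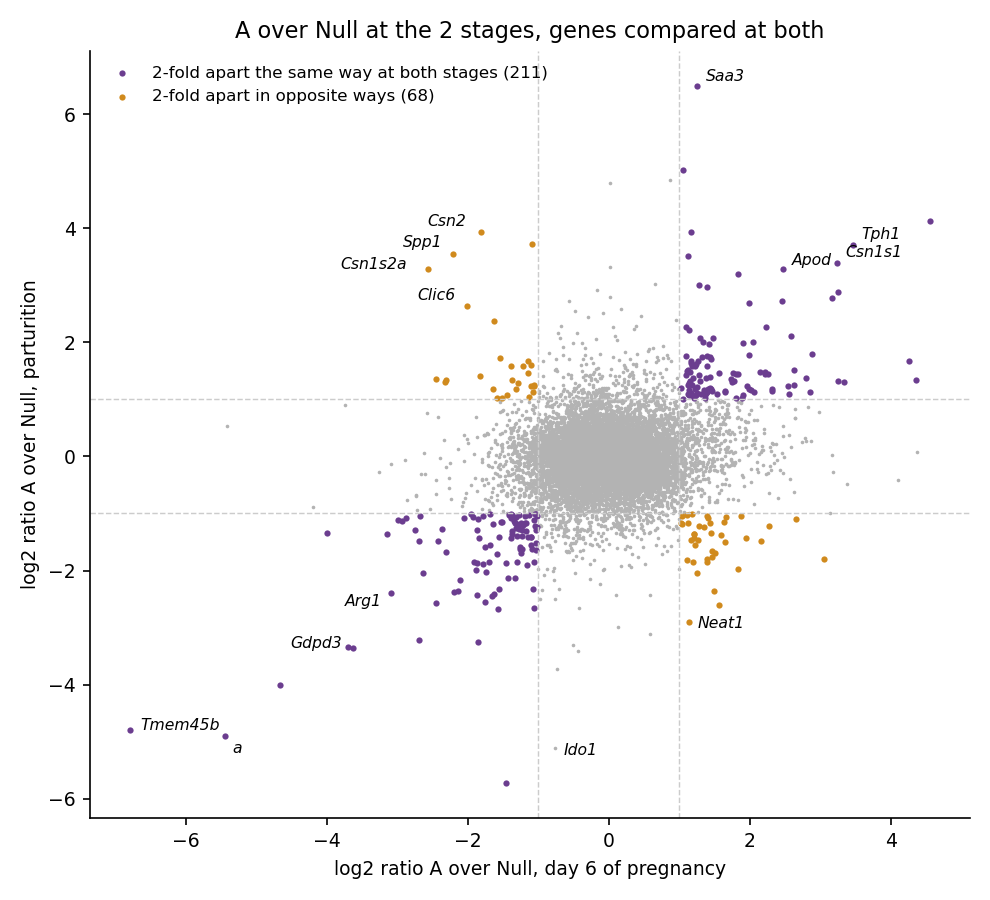
Log2 ratio of scaled FPKM + 1, A over Null, at parturition (vertical axis) against that at day 6 of pregnancy (horizontal axis), for genes compared at both stages, each point a gene. Purple points, 211 genes, were at least 2-fold apart in the same direction at both stages, and orange points, 68 genes, in opposite directions, with Csn2, Csn1s2a and Spp1 at upper left and Tmem45b and the gene a at lower left.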

How the data were processed

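Poly(A) RNA of mammary tissue was sequenced from 31 listed samples in 6 genotypes at 2 stages. Per the submitters' processing notes the reads passed through CASAVA and TopHat with the mouse build mm9; the program that estimated FPKM and its annotation are not given in the sources used here. The authors deposited FPKM values, 1 mean per genotype and stage. In the parturition table, 6 of 684 genes of at least 100 FPKM in A, and 18 of 623 in Null, share their value with another gene to the last digit. The step that produced this is not given in the sources used here. The protocol speaks of 2 mice per genotype. A samples carry the tags #6R and #9R and B samples #5L, #6L and #9L, and whether any share an animal is not in the labels.

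Columns were scaled by the median ratio over genes that reach 1 FPKM in every column of a stage (10864 at parturition, 11733 at day 6), with factors of 1.10 for A and 1.11 for Null. Genes with a scaled FPKM of at least 1 in A or Null were compared by the log2 ratio of scaled FPKM + 1. Tests with limma, leave-one-out fits and a replicate block were planned and could not be run on means. Transcript length and GC content are those of the longest GENCODE M21 transcript of each symbol (98.2% of genes matched), which need not be the one expressed. Named genes are Stat5a and Stat5b, the 15 highest and 15 lowest with at least 10 FPKM and a characterised name, up to 5 members per list with the largest ratios or in a stated role, and up to 6 genes per direction and stage pattern. Other genes are named for their abundance or as examples of a list. A result that the rule takes is not reported here. Members and the 36 gene lists were chosen with earlier results of these data known. Simulated data with 200 genes of at least 5 FPKM changed 4-fold gave back 100% of them, with 0 unchanged genes past 2-fold among 13060. The simulated noise was set small in advance and not taken from replicates. The simulation thus checks the computation and gives no rate of false calls in these data. Alternatives were a pseudocount of 0.1, no scaling, scaling from 2 columns, a floor of 5 FPKM, no floor, and removal of the length and GC trend by lowess. The software was numpy 2.4.6 and pandas 2.3.3 under Python 3.11.15, with statsmodels 0.14.6 for lowess, scipy 1.17.1 for rank correlation and matplotlib 3.10.9 for plots.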

Additional observations from a re-analysis of the deposited data

How the results depend on the processing

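No paired analysis was possible because the tables hold 1 mean per genotype, and for the same reason fits that leave out a replicate were not run. With a pseudocount of 0.1 in place of 1, 698 genes were at least 2-fold higher and 828 lower in A, and 143 and 154 at least 4-fold, since a smaller pseudocount shrinks the ratios of weakly expressed genes less. Without scaling 477 were higher and 509 lower, with scaling from the A and Null columns alone 508 and 474, and with a floor of 5 FPKM 387 and 356. With the trend with length and GC content removed, 410 were higher and 470 lower, of which 382 and 417 are among those of the main setting. No called direction reversed among the 36 list medians and 48 genes recomputed (34 and 45 with a floor of 5 FPKM). The uncalled median of the mitochondrial respiratory chain changed sign, with 0.09 in the main setting and −0.02 without the trend. Medians that crossed 2-fold were those of the RANKL list (1.02 with a pseudocount of 0.1, 1.03 with a floor of 5 FPKM), white adipocytes (−1.01 with a pseudocount of 0.1, −1.04 without the trend), brown adipocytes (−1.09 with a pseudocount of 0.1) and neutrophils (0.53 with no floor). Depth is unknown, so the precision of levels near 1 FPKM cannot be given.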

Other observations

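The following genes were chosen after their values were seen. Counts and medians cover all compared genes of each family, and levels are given for some of them. Hepacam2, Ncald, Trf and Lipa belong to neither family and were picked singly. Guanylate-binding proteins are GTPases that interferon-gamma induces in defence against intracellular microbes. Of 10 such genes compared, 4 were at least 2-fold lower in A and none higher, with a median log2 ratio of −0.88, beside −0.03 over all genes. Gbp1 was 13.9 in A and 40.5 in Null, Gbp2 21.6 in A and 53.2 in Null, Gbp7 6.07 in A (log2 ratio −1.18), and Gbp9 2.21 in A and 9.84 in Null. The exceptions above 0 were Gbp11 (log2 ratio 0.41) and Gbp8 (0.03), both at low levels. At day 6 of pregnancy 2 of 11 were higher and none lower, with a median of 0.46. These genes are near-copies of each other, so their single levels are uncertain.

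The vacuolar proton pump acidifies organelles and, in ion-transporting cells, the space outside them. Of its 17 subunit genes compared, 2 were at least 2-fold higher in A and none lower (median 0.12). Atp6v1b1, the B subunit found in acid-secreting cells, was 277 in A and 95.7 in Null, against 6.76 in wild type, while Atp6v1b2, the B subunit of most tissues, was 43.9 in A and 34.3 in Null. Atp6v1c2 was 10.2 in A and 3.04 in Null. Hepacam2, 8.34 in A and 1.17 in Null, and Ncald, 52.6 in A and 7.94 in Null, were also higher in A. Atp6v1b1 thus differed in the same direction as Foxi1 and Clic6, and like them it was far lower in wild type than in A. Among abundant transcripts, Trf (transferrin, an iron carrier in milk) was 3710 in A and 533 in Null, against 26568 in wild type, and the lysosomal lipase Lipa was 364 in A and 47.3 in Null.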
